A study of Arabidopsis thaliana with 4 samples.

Results

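The copper transport genes described here are 10 of the 32538 genes in the expression table: the 6 members of the COPT family of copper transporters (COPT1 to COPT6), the metal transporter ZIP2, the copper-pumping ATPase HMA5, the copper chaperone CCH and the transcription factor SPL7. They were selected by name, with the FPKM values of the comparison below already known, so their differences between genotypes are given as a description and without a test. RNA was measured in hypocotyls of Arabidopsis thaliana seedlings that were placed on half-strength MS medium, left to germinate for 24 hours and then kept in the dark at 22 °C. Seedlings were 5 days old. There were 2 libraries of the wild-type accession Col-0 and 2 of shr-2, a mutant allele of SHORT-ROOT (SHR) in the Col-0 background. SHR encodes a GRAS transcription factor needed to form the endodermis. The mutant group is 1 line, so a second mutation in that line cannot be told apart from the loss of SHR. The series text calls the replicates biological duplicates.

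The labels disagree in places. The tissue field gives root tip for all 4 libraries, and for both mutant libraries the genotype field gives a line overexpressing SCL28, whereas titles, source names and protocols give hypocotyls and the shr mutant, and the groups follow the titles. The SHR transcript stood at 28.4 and 28.9 FPKM (fragments scaled to transcript length and to the library's mapped fragments) in Col-0 and at 2.57 and 3.45 FPKM in shr-2, a difference of -2.90 on the log2(FPKM + 1) scale (SE 0.14; limma, adjusted p = 0.00049). Of 8 markers of root meristem, root cap and root hairs none reached a mean of 1 FPKM. All 8 endodermis markers were lower in both shr-2 libraries, with summed levels of 550 and 670 FPKM in Col-0 against 13.7 and 13.8 FPKM in shr-2, and none was at 0. Summed xylem markers (6 genes) lay between 260 and 290 FPKM in all 4 libraries, summed phloem markers (6 genes) between 130 and 164 FPKM, and summed epidermis markers (5 genes) between 551 and 771 FPKM. Summed markers of photosynthetic cotyledon tissue (8 genes, 7 of them above both Col-0 libraries) were 2471 and 2697 FPKM in Col-0 and 8595 and 11286 FPKM in shr-2. In the authors' deposited table their fold changes ran from 1.19 for LHCB1.3 to 4.98 for RBCS1A, the most abundant of them. In these bulk samples fewer cells of a type and less RNA per cell cannot be told apart. Low values of FPKM times transcript length in kb were taken within a window of 0.02 to 0.07. From their median, 1 fragment was estimated at 0.0451 to 0.0479 FPKM for a 1-kb transcript. The window bounds this estimate, so the fragment numbers below are approximate and do not show that the libraries were equally deep.

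Plants need copper for plastocyanin in photosynthetic electron transport, for cytochrome c oxidase and for several oxidases and superoxide dismutases, yet free copper is toxic. COPT proteins carry reduced copper across the plasma membrane or out of the vacuole, metallochaperones pass it on inside the cell, and P-type ATPases pump it into organelles or out of the cell. When copper is scarce, SPL7 binds the core letters GTAC in the upstream regions of its targets, which raises uptake genes and copper-saving microRNAs. Those microRNAs lower the transcripts of dispensable copper proteins, and the iron superoxide dismutase FSD1 takes over from the copper/zinc enzymes.

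The stretches of sequence that hold clusters of GTAC near the start of COPT1, COPT2, COPT3 and ZIP2 are shown first, because these 4 genes carried 3 or more copies and had higher levels in both shr-2 libraries, as had HMA5 with no copy and CCH with 1. They were read from the RefSeq TAIR10.1 genome, on the strand of each gene and 5′ to 3′, with GTAC in capitals. For COPT3 the stretch is the 120 bases before the gene start (chr5:23836505-23836624, plus strand). For ZIP2 it is the 120 bases before the gene start (chr5:23992909-23993028, minus strand). For COPT1 there are 2 sites of 30 bases in the 5′ untranslated region, at chr5:23834637-23834666 and chr5:23834599-23834628 on the minus strand. For COPT2 it is 1 site of 30 bases at chr3:17268762-17268791 on the plus strand, inside the gene model and before the start of the RefSeq transcript.
COPT3: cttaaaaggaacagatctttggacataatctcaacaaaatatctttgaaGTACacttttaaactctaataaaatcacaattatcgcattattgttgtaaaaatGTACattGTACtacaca
ZIP2: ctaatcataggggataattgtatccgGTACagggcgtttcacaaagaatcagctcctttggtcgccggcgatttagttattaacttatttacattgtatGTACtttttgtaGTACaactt
COPT1, site 1: cttttatGTACgaGTACgacagaaggtttg
COPT1, site 2: aaaaacaagttGTACtGTACtacgttaaca
COPT2: agatgatGTACttGTACtacaGTACaacac

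GTAC reads the same on both strands and cannot overlap itself, so each match was counted once. In the 500 bases before the coding start, ZIP2 held 5 matches, COPT1 and COPT2 held 4 each, COPT3 held 3, COPT6 held 2 and CCH held 1. COPT4, COPT5, HMA5 and SPL7 held none. Of the 27441 coding genes in the data, 53.1% held at least 1 match in such a window and 5.44% held at least 3. The shares with at least 3 were 5.74% of coding genes called higher in shr-2 and 5.44% of those called lower.

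Spacing between matches varied. Counted back from the coding start, with the base just before it at -1, the first letters of the matches were at -202, -196, -160 and -155 in COPT1. They were at -155, -118, -112 and -104 in COPT2 and at -170, -116 and -109 in COPT3. Each of these 3 genes had at least 1 pair of matches whose first letters were 5 to 7 bases apart. The remaining gaps in these genes ran from 8 to 54 bases, and the share of all genes with such pairs was not computed. In COPT6 the matches were at -148 and -115, 33 bases apart, and in ZIP2 at -240, -167, -155, -128 and -88.

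Where the matches fell depended on where the gene model begins. In the 250 bases before the gene start COPT3 held 3 matches (-71, -17 and -10), ZIP2 held 3 (-94, -21 and -9), CCH held 1 (-18), and the other 7 members held none. Of all genes 34.7% held at least 1 match in that window and 1.42% at least 3. The gene models of COPT1, COPT2 and COPT6 begin 288, 187 and 265 bases before their coding starts, so all of their matches lay inside the model. A match is a stretch of letters and binding was not measured.

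**Figure D1:**
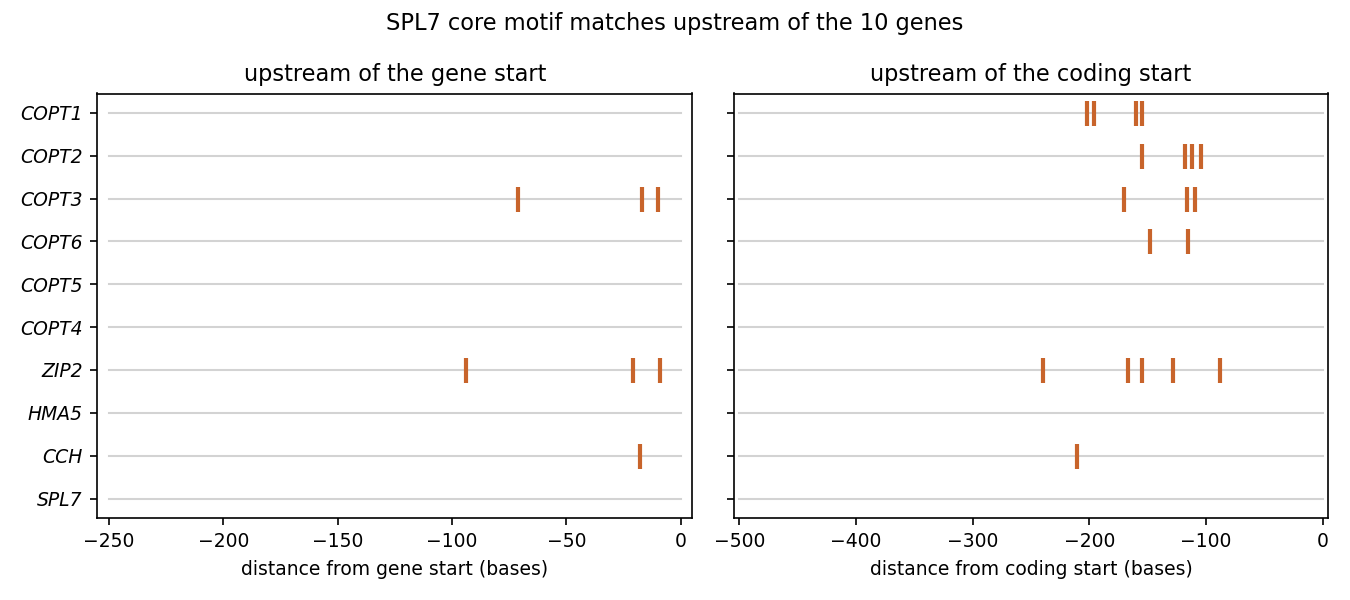
Positions of GTAC upstream of the 10 genes, as ticks along a line for each gene, with distance in bases from the gene start (left, 250 bases) and from the coding start (right, 500 bases) on the horizontal axes. COPT1, COPT2, COPT3 and ZIP2 each hold 3 or more matches on the right, and COPT4, COPT5, HMA5 and SPL7 hold none.

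SPL7 (AT5G18830), the regulator, was the member whose mean differed least between the genotypes. Its FPKM was 12.4 and 13.7 in Col-0 and 12.8 and 14.6 in shr-2, and the groups overlapped. The difference was 0.07 on the log2(FPKM + 1) scale (SE 0.11), a ratio of means of 1.05, and it turned to -0.0036 without Col-0 replicate 1 and to -0.02 without shr-2 replicate 2. SPL7 lies at chr5:6275895-6280681 on the plus strand and its longest transcript has 10 exons.

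COPT2 (AT3G46900), a plasma membrane transporter of high-affinity copper uptake, showed the largest difference of the 10 genes. It stood at 0.0648 and 0 FPKM in Col-0 and at 7.98 and 8.61 FPKM in shr-2. Both mutant libraries were high, whereas the Col-0 values correspond to about 0.914 and 0 fragments, against about 108 and 114 in shr-2. The difference was 3.17 on the log2(FPKM + 1) scale (SE 0.13), and 4.05 or 6.03 with a pseudocount of 0.5 or 0.1, so its size rests on the pseudocount and no fold is given against a level of about 1 fragment. COPT2 is a gene of 1 exon at chr3:17268700-17269510, plus strand.

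COPT1 (AT5G59030), which takes up copper at the plasma membrane and was the first of the family to be described, was at 44.1 and 41.2 FPKM in Col-0 and at 75.2 and 83.7 FPKM in shr-2. The groups were well apart. The ratio of means was 1.86 and the difference 0.88 on the log2(FPKM + 1) scale (SE 0.10). COPT1 (chr5:23833493-23834745, minus strand, 1 exon) and COPT3 (chr5:23836625-23837350, plus strand, 1 exon) are divergent neighbours with 1879 bases between their models.

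COPT3 (AT5G59040) was at 0.614 and 0.258 FPKM in Col-0 and at 6.77 and 2.06 FPKM in shr-2. Both shr-2 libraries were above both Col-0 libraries, but replicate 1 of shr-2 was far above replicate 2, with about 105 against 31.3 fragments. The ratio of means was 10.13, but its Col-0 side rests on about 9.90 and 4.13 fragments, so its size is uncertain. The difference was 1.78 on the log2(FPKM + 1) scale, with the widest error of the 10 genes (SE 0.46). Leaving out shr-2 replicate 1 gave 1.103 and leaving out shr-2 replicate 2 gave 2.45. The divergent neighbour COPT1 did not show this gap between the mutant libraries.

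COPT4 (AT2G37925) was the member with the clearest lower level in shr-2. It was at 14.1 and 13.5 FPKM in Col-0 and at 8.36 and 8.43 FPKM in shr-2, and the replicates of each group lay close together. Its mean was 1.64 times as high in Col-0, a difference of -0.66 on the log2(FPKM + 1) scale (SE 0.09). The gene has 1 exon at chr2:15870077-15870754, minus strand.

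COPT5 (AT5G20650), which releases copper from the vacuole, was at 64.2 and 83.8 FPKM in Col-0 and at 49.0 and 66.2 FPKM in shr-2. The groups overlapped, and the difference was -0.36 on the log2(FPKM + 1) scale (SE 0.20). It lay at -0.15 without shr-2 replicate 1 and at -0.17 without Col-0 replicate 2, against -0.57 without shr-2 replicate 2 and -0.55 without Col-0 replicate 1. COPT5 (chr5:6985298-6986037, minus strand) shares 266 bases with AT5G03185 on the opposite strand, which was listed at 496 to 617 FPKM, and 68 bases with AT5G20640, listed at 1.15 to 2.76 FPKM. No source used here states strand-aware counting, so reads from COPT5 and AT5G03185 may not have been separated and the level of COPT5 is uncertain.

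COPT6 (AT2G26975), a plasma membrane transporter found mainly in shoots, was at 14.3 and 16.6 FPKM in Col-0 and at 12.98 and 22.7 FPKM in shr-2. The 2 mutant libraries enclosed the Col-0 values. The difference of 0.15 on the log2(FPKM + 1) scale (SE 0.26) was smaller than its error and turned to -0.23 without shr-2 replicate 2. COPT6 lies at chr2:11512727-11513695, plus strand. Its transcript shares 80.8% of letters with COPT2 over 417 aligned bases, and COPT1 and COPT2 share 72.9% over 480 bases. No member had another transcript with at least 90% identity over at least 50% of its length.

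ZIP2 (AT5G59520), a ZIP-family metal transporter known to respond to copper supply in roots, was at 3.30 and 3.71 FPKM in Col-0 and at 9.95 and 9.73 FPKM in shr-2. The groups did not overlap and the replicates were close. The ratio of means was 2.81 and the difference 1.27 on the log2(FPKM + 1) scale (SE 0.11). ZIP2 has 2 exons at chr5:23991213-23992908, minus strand.

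HMA5 (AT1G63440), a P-type ATPase that exports copper and acts in root detoxification and root-to-shoot transfer, was at 4.13 and 4.26 FPKM in Col-0 and at 6.96 and 6.998 FPKM in shr-2. Both mutant libraries were higher. The ratio of means was 1.66 and the difference 0.62 on the log2(FPKM + 1) scale (SE 0.10). HMA5 has 6 exons at chr1:23527570-23531226, plus strand.

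CCH (AT3G56240), a copper chaperone abundant in vascular tissue, had the highest level of the 10 genes in all 4 libraries. It was at 106 and 85.6 FPKM in Col-0 and at 149 and 116 FPKM in shr-2. The groups did not overlap, but the gap between them was smaller than the gap between the shr-2 replicates, and the difference was 0.46 on the log2(FPKM + 1) scale (SE 0.17). It was 0.28 without shr-2 replicate 1 and 0.31 without Col-0 replicate 2. CCH lies at chr3:20863139-20864727, minus strand. Summed phloem markers were 151 and 164 FPKM in Col-0 and 130 and 157 FPKM in shr-2, and their part in the CCH level was not tested.

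**Figure D2:**
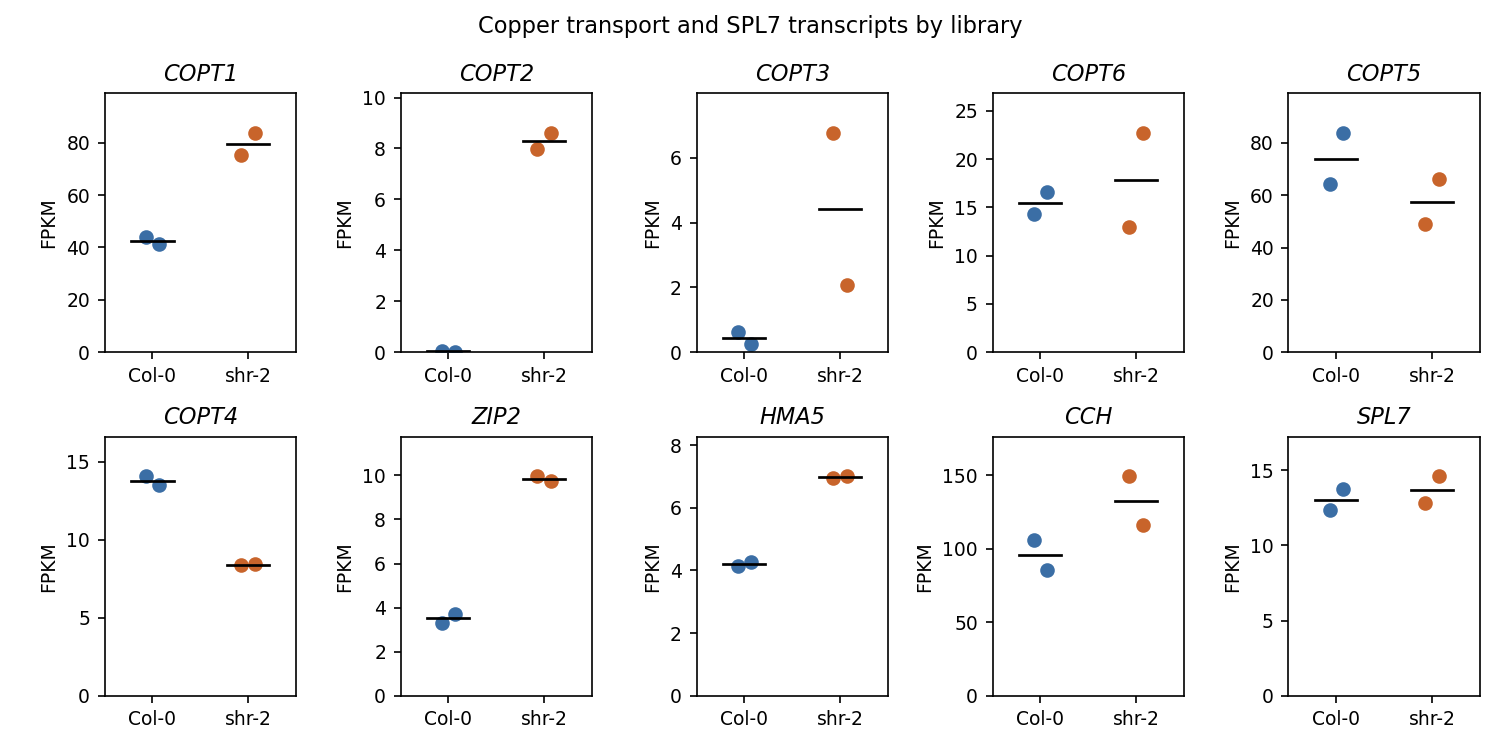
FPKM of each of the 10 genes in the 2 Col-0 (blue) and 2 shr-2 (orange) libraries, one point for each library, with a bar at the group mean and vertical axes that start at 0 and differ between panels. COPT2 is near 0 in Col-0 and at 7.98 and 8.61 FPKM in shr-2, whereas the libraries of COPT5, COPT6 and SPL7 overlap between genotypes.

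In Col-0 the mean levels ran from CCH (95.9 FPKM ± 14.6, SD, n = 2) and COPT5 (74.0 ± 13.9) through COPT1 (42.6 ± 2.08) to a middle group of COPT6 (15.4 ± 1.63), COPT4 (13.8 ± 0.375) and SPL7 (13.05 ± 0.948). HMA5 (4.20 ± 0.0896) and ZIP2 (3.51 ± 0.288) followed, and COPT3 (0.436 ± 0.252) and COPT2 (0.0324 ± 0.0458) were lowest. The libraries of COPT4 and SPL7 overlapped, so these neighbours in the order did not differ beyond their spread. In shr-2 COPT1 (79.4 FPKM ± 6.06) stood above COPT5 (57.6 ± 12.1), the reverse of the listed Col-0 order, though the uncertain level of COPT5 makes its place in either order uncertain too. ZIP2 (9.84 ± 0.158), COPT4 (8.39 ± 0.0430), COPT2 (8.29 ± 0.445) and HMA5 (6.98 ± 0.0290) lay close together in shr-2. COPT4 there lay within the range of COPT2, and COPT6 (17.8 ± 6.89) overlapped SPL7 (13.7 ± 1.24).

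The shares below include the uncertain level of COPT5 in the sum. The 6 transcripts added up to 137 and 155 FPKM in Col-0 and to 160 and 192 FPKM in shr-2. COPT1 made up 32.1% and 26.5% of that sum in Col-0 and 46.9% and 43.7% in shr-2. COPT5 made up 46.8% and 54.0% in Col-0 and 30.6% and 34.5% in shr-2, values that carry the doubt about reads shared with AT5G03185. COPT2 accounted for 0.0472% and 0% of the sum in Col-0 and for 4.98% and 4.49% in shr-2. COPT4 accounted for 10.2% and 8.71% in Col-0 and for 5.22% and 4.39% in shr-2. The share of COPT6 was 10.4% and 10.7% in Col-0 and 8.10% and 11.9% in shr-2, which overlap.

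**Figure D3:**
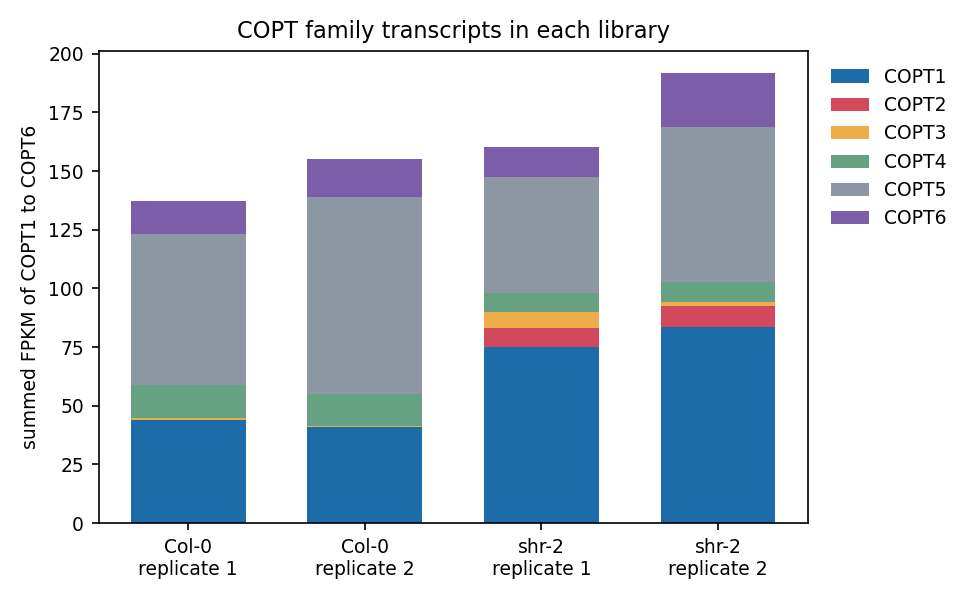
Summed FPKM of COPT1 to COPT6 in each of the 4 libraries, stacked by gene. The COPT1 segment is taller in the shr-2 libraries (75.2 and 83.7 FPKM) than in the Col-0 libraries (44.1 and 41.2 FPKM), and a COPT2 segment is visible in shr-2 and not in Col-0.

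Across the 19920 genes whose mean over the libraries reached 1 FPKM (SHR kept in any case), limma called 2778 higher (13.9%) and 2725 lower (13.7%) in shr-2 at an adjusted p under 0.05, together 27.6%. All 10 members entered the fit, although COPT2 and COPT3 reached the minimum only through their shr-2 libraries. Past this threshold were 5 members with higher levels (COPT1, COPT2, COPT3, ZIP2 and HMA5) and 1 with a lower level (COPT4), and since the members were chosen with this contrast known nothing further is read from that count. The count was 3 without Col-0 replicate 1 or without Col-0 replicate 2, and 5 without either shr-2 library. The 2 genotypes did not overlap for 7 members, beside 66.2% of all genes tested. The authors' deposited table listed 6 members as significant (COPT1, COPT3, COPT4, ZIP2, HMA5 and CCH), beside 24.8% of the 21844 genes it tested. In the authors' deposited table COPT2 had a q-value of 0.5289 with a log2 fold change of 8.001, and CCH a q-value of 0.0265, so these 2 genes are called differently there.

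Around the members, 92 genes of copper and metal homeostasis in 10 lists were examined, of which 71 entered the fit. Of these, 22 were higher, 8 were lower and 41 did not pass the test, so 42.3% were called, beside 27.6% of all genes tested (13.9% higher and 13.7% lower). Of the 22, 4 (MIR398B, MIR408, HMA2 and FRO7) reached the minimum only through shr-2, and LAC3 among the 8 only through Col-0, so these counts are no measure of the lists as a whole. The lists had a median difference of 0.24 on the log2(FPKM + 1) scale against 0.01 over all genes. The counts fell to 9 higher and 5 lower without Col-0 replicate 1, to 12 and 5 without Col-0 replicate 2, and to 14 and 7 without shr-2 replicate 2. They were 19 and 6 without shr-2 replicate 1. Each adjusted p below comes from the limma fit over all 19920 genes. Of the 30 genes called here, 5 were not significant in the authors' deposited table, with q-values there of 0.503 for MIR398B, 0.523 for MIR408, 0.0601 for COX11, 0.0976 for CSD3 and 0.143 for ZIP1.

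Of 11 genes placed under SPL7 in copper deficiency, 2 (FSD1 and YSL2) were above the minimum in both genotypes. Both were called higher, as were 13.9% of all genes tested. MIR398B, MIR398C and MIR408 entered the fit only through their shr-2 libraries, so their calls are not counted here, and the other 6 did not enter it. FSD1, the iron superoxide dismutase of the chloroplast, was at 145 and 179 FPKM in Col-0 and at 1195 and 1392 FPKM in shr-2, a log2 difference of 2.99 (SE 0.15; adjusted p = 0.000598). YSL2, a transporter of metal-nicotianamine complexes, was at 4.11 and 4.02 FPKM in Col-0 and at 11.3 and 11.6 FPKM in shr-2, a log2 difference of 1.297 (SE 0.10; adjusted p = 0.00165). The precursor MIR408, whose microRNA targets laccases and plantacyanin, was at 0 and 0.505 FPKM in Col-0 and at 7.18 and 5.26 FPKM in shr-2. The log2 difference was 2.54 (SE 0.25). The precursor MIR398B was listed at 0 in each Col-0 library and at 55.5 and 50.9 FPKM in the mutant. Neither precursor was significant in the authors' deposited table. FPKM of such short models is uncertain, and the related MIR398C was listed at 0, 0, 0 and 59.3 FPKM. MIR397A and MIR397B were listed at 0 in all 4 libraries. The copper reductase genes FRO4 and FRO5, which SPL7 activates in roots, stayed at or below 0.332 FPKM. The bHLH gene AT1G71200 was at 0.0751 and 0 FPKM in Col-0 and at 1.19 and 0.604 FPKM in shr-2, below the minimum for the test.

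Targets of the copper microRNAs moved in both directions. Of 13 genes 6 fell, 2 rose and 5 did not pass the test (median -0.09), so 61.5% were called, beside 27.6% of all genes tested. LAC3, among the 6, reached the minimum for the fit only through Col-0, so this count is no measure of the whole list. CCS, the chaperone that loads copper into superoxide dismutases, was at 63.6 and 62.7 FPKM in Col-0 and at 35.8 and 35.5 FPKM in shr-2, a log2 difference of -0.81 (SE 0.08; adjusted p = 0.00338). CSD1 and CSD2, the cytosolic and chloroplast copper/zinc superoxide dismutases, were named after their values were seen. LAC4, a laccase of the same list that rose, was named likewise. It was at 9.48 and 10.2 FPKM in Col-0 and at 15.2 and 18.4 FPKM in shr-2 (limma, adjusted p = 0.0148). How far the calls of CSD1, CSD2 and LAC4 hold with 1 library left out is not given here. CSD1 was at 299 and 292 FPKM in Col-0 and at 180 and 197 FPKM in shr-2 (adjusted p = 0.00962). CSD2 was at 195 and 224 FPKM in Col-0 and at 122 and 151 FPKM in shr-2 (adjusted p = 0.0337). These falls stood beside the rise of FSD1 in the same libraries, whereas COX5B-1 and ARPN of the same list did not pass the test. COX5B-1 was at 66.8 and 66.1 FPKM in Col-0 and at 68.5 and 77.7 FPKM in shr-2. ARPN was at 5.93 and 8.71 FPKM in Col-0 and at 8.90 and 10.7 FPKM in shr-2.

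The widest falls in that list were in cell wall copper proteins. LAC3, a laccase, was at 20.4 and 26.2 FPKM in Col-0 and at 0.694 and 0.875 FPKM in shr-2. The log2 difference was -3.76 (SE 0.16). LAC3 reached the minimum for the fit only through Col-0, so its call is not read here. UCC2, a uclacyanin, was at 268 and 341 FPKM in Col-0 and at 65.6 and 78.9 FPKM in shr-2, a log2 difference of -2.06 (SE 0.16; adjusted p = 0.00179). LAC3 is known from the Casparian strip of the endodermis, and summed endodermis markers were 550 and 670 FPKM in Col-0 against 13.7 and 13.8 FPKM in shr-2, whose part in these falls was not tested. LAC12, another laccase, rose by a log2 difference of 1.23 (SE 0.18; adjusted p = 0.0094, and 0.0594 without Col-0 replicate 1).

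Of 12 genes of intracellular copper delivery 2 rose and 10 did not pass the test, so 16.7% were called, beside 27.6% of all genes tested (median 0.04, against 0.01). PAA1, the ATPase that brings copper into the chloroplast, was at 18.3 and 21.9 FPKM in Col-0 and at 28.7 and 32.2 FPKM in shr-2 (adjusted p = 0.0269). COX11, a factor for assembly of cytochrome c oxidase, was at 12.6 and 12.9 FPKM in Col-0 and at 16.1 and 18.9 FPKM in shr-2 (adjusted p = 0.0451). Neither passed when any 1 library was left out, with adjusted p between 0.0569 and 0.128 for PAA1 and between 0.0638 and 0.198 for COX11.

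Of 7 copper enzymes and plastocyanins 4 rose and 3 did not pass (median 0.71), so 57.1% were called, beside 27.6% of all genes tested. PETE2, the main plastocyanin, was at 159 and 167 FPKM in Col-0 and at 379 and 475 FPKM in shr-2, a log2 difference of 1.38 (SE 0.14; adjusted p = 0.00319). Summed photosynthetic markers, of which RBCS1A was the most abundant, were 2471 and 2697 FPKM in Col-0 and 8595 and 11286 FPKM in shr-2. Their part in the values of PETE2, FSD1 and PAA1 was not tested. AT5G21100, annotated as ascorbate oxidase-like, rose by 1.15 (SE 0.12; adjusted p = 0.00332) and AT4G39830 by 0.71 (SE 0.10; adjusted p = 0.00837). AT4G39830 did not pass without Col-0 replicate 1 (0.0659) or Col-0 replicate 2 (0.0631). CSD3, the peroxisomal copper/zinc superoxide dismutase, was at 28.8 and 39.6 FPKM in Col-0 and at 52.8 and 76.6 FPKM in shr-2 (adjusted p = 0.046), and it did not pass without 3 of the 4 libraries in turn (0.0874 to 0.2002).

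Among the transporters related to the members, 3 of the 7 tested ZIP genes other than ZIP2 rose and none fell (median 0.49). The share called was 42.9%, beside 27.6% of all genes tested. ZIP1 was at 3.77 and 4.64 FPKM in Col-0 and at 16.4 and 15.6 FPKM in shr-2, a log2 difference of 1.71 (SE 0.12; adjusted p = 0.00144). ZIP4 rose by 0.92 (SE 0.13; adjusted p = 0.00728, and 0.0532 without Col-0 replicate 1). IRT3 rose by 0.57 (SE 0.13; adjusted p = 0.0333), and did not pass without 3 of the libraries in turn (0.0944 to 0.116).

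Of the 3 tested relatives of HMA5 (HMA1, HMA2 and HMA4), 1 was called higher and 1 lower, beside 27.6% of all genes tested called in either direction. HMA2 was at 0.829 and 0.759 FPKM in Col-0 and at 3.57 and 3.86 FPKM in shr-2, a log2 difference of 1.39 (SE 0.13). It reached the minimum only through shr-2, so its call is not read here. HMA4 was at 32.6 and 29.6 FPKM in Col-0 and at 19.4 and 19.8 FPKM in shr-2, a log2 difference of -0.64 (SE 0.10; adjusted p = 0.00913, and 0.0698 without Col-0 replicate 1). Both pump zinc toward the xylem, HMA1 did not pass the test, and HMA3 was below 1 FPKM (median of the 3 tested 0.18).

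Of the 3 metal reductases tested 2 rose and 1 did not pass (median 0.95), beside 27.6% of all genes tested called in either direction. The gene that did not pass was FRO3, the most abundant of the 3. It was at 85.2 and 107 FPKM in Col-0 and at 78.2 and 96.2 FPKM in shr-2. FRO8, placed in mitochondria, was at 3.29 and 3.92 FPKM in Col-0 and at 13.3 and 14.6 FPKM in shr-2, a log2 difference of 1.70 (SE 0.12; adjusted p = 0.00144). FRO7, the chloroplast reductase, also reached the minimum only through shr-2, so its call is not read here. Its log2 difference was 0.95 (SE 0.25), and it did not pass without 3 of the libraries in turn. None of the 6 tested YSL genes other than YSL2 passed the test (median 0.08). YSL7 was below the minimum for the test, at 0.958 and 1.20 FPKM in Col-0 and at 0.374 and 0.604 FPKM in shr-2. The authors' deposited table listed YSL7 as significant and lower in shr-2, with a q-value of 0.0310. YSL6 was at 42.6 and 48.5 FPKM in Col-0 and at 32.8 and 38.5 FPKM in shr-2, and YSL5 at 39.7, 42.4, 30.8 and 39.0 FPKM in the same order.

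Metallothioneins, small cysteine-rich proteins that bind copper and zinc, rose in 4 of 5 genes (median 0.55). The share called was 80%, beside 27.6% of all genes tested. MT2B was at 987 and 977 FPKM in Col-0 and at 2189 and 2499 FPKM in shr-2, a log2 difference of 1.25 (SE 0.13; adjusted p = 0.00337). MT3, MT2A and MT1C rose by 0.56, 0.55 and 0.54, with adjusted p of 0.0371, 0.04 and 0.0495. None of the 4 calls held in every set of 3 libraries: MT2B did not pass without either Col-0 library (0.0903 and 0.0824), and the others without 3 or 4 of the libraries in turn (0.0604 to 0.236).

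The other SPL transcription factors showed 1 called gene. Of 14 genes 10 entered the fit, 1 fell and 9 did not pass (median 0.22), so 10% were called, beside 27.6% of all genes tested. SPL2 was at 15.9 and 18.3 FPKM in Col-0 and at 6.16 and 6.97 FPKM in shr-2, a log2 difference of -1.26 (SE 0.12; adjusted p = 0.00276).

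**Figure D4:**
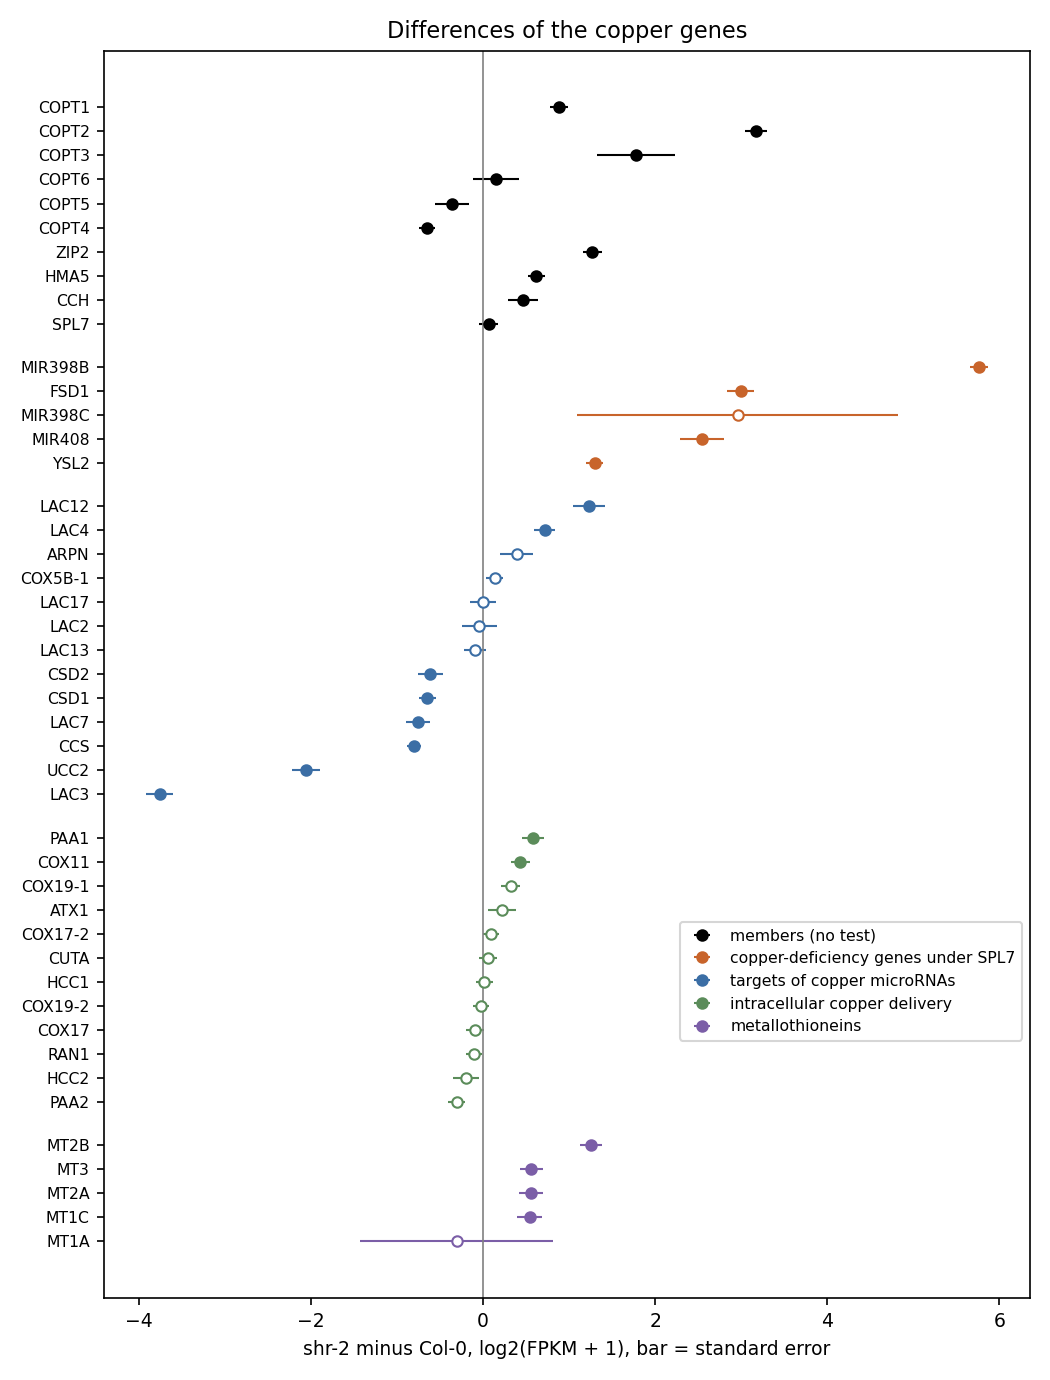
Difference between shr-2 and Col-0 on the log2(FPKM + 1) scale for the 10 members and 4 of the copper lists, with bars of 1 standard error. Filled points in color passed the limma threshold (adjusted p under 0.05), open points did not, and members are black and carry no test. Members run from COPT4 (-0.66) to COPT2 (3.17), with SPL7 at 0.07, and the listed genes from LAC3 (-3.76) to MIR398B (5.76). COPT2, COPT3, MIR398B, MIR398C and MIR408 reached the minimum for the fit only through shr-2, and LAC3 only through Col-0.

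The genes with the most similar profiles were sought by Euclidean distance in log2(FPKM + 1) over the 4 libraries. Nearest to COPT2 were AT1G47780, annotated as an alpha/beta-hydrolase (distance 0.0943), the defensin-like gene SCRL9 (0.28) and the precursor MIR166C (0.312), all listed at 0 in Col-0. Nearest to COPT4 were the cytochrome P450 gene CYP705A33 (0.0479), the kinase gene AT3G24715 (0.14) and the syntaxin gene SYP31 (0.183). Nearest to SPL7 were AT5G18250 (0.0286), AT3G03010 (0.0628) and AT5G67280 (0.0726). Over 4 libraries such distances chiefly reflect mean level and genotype difference.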

How the data were processed

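The authors deposited FPKM per gene and library and a comparison table with log2 and linear fold changes, a test score and p-values with q-values. The submitters' processing notes name CASAVA 1.8.2, TopHat2 2.0.13, Cuffdiff 2.2.0 and TAIR10; the deposited expression table is the authors' own and its header names Araport11. Libraries came from a stranded mRNA kit, per the labels' protocols. Read depth and strand use in counting are not given in the sources used here.

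FPKM values are not counts, so limma 3.58.1 (R 4.3.3) was fitted to log2(FPKM + 1) with a mean-variance trend, for the 19920 genes reaching a mean of 1 FPKM, 2-sided, with Benjamini-Hochberg adjustment at 0.05. The fit was run on data simulated from its own means and residual spread. Such a run cannot show whether its assumptions hold for these FPKM values. There are 2 residual degrees of freedom, so precision is limited. All 32538 genes matched the RefSeq TAIR10.1 annotation by identifier; deposited and annotated coordinates were equal for 71.7%, 9 of the 10 members among them, and 99.98% of annotated genes lay within the deposited locus. Coordinates are those of TAIR10.1. Near copies were sought with blastn 2.17.0. The 10 members and all lists were chosen with earlier results of these data known, and the lists come from textbook knowledge. Named genes are the members, SHR, up to 4 called genes of each list by smallest adjusted p (or the 2 most abundant), and the 3 nearest profiles of COPT2, COPT4 and SPL7, plus overlapping or neighbouring genes. CSD1, CSD2, LAC4, COX5B-1, ARPN, FRO3, YSL7, MIR398C, MIR397A, MIR397B, FRO4, FRO5, AT1G71200, HMA1 and HMA3 fall outside this rule and were named after their values were seen. Alternatives were other pseudocounts, filters and scalings, a replicate block and each library left out.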

Additional observations from a re-analysis of the deposited data

How the results depend on the processing

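With 1 library left out, the genes called higher numbered 964 to 2053 and those called lower 1094 to 1799, the copper-list genes 9 to 19 higher and 5 to 7 lower, and the members past the threshold 3 to 5. The lowest gene counts were without Col-0 replicate 1 (964 and 1094), followed by Col-0 replicate 2 (1108 and 1158). Those fits leave 1 library alone in its group and assume that it varies like the other group. The replicate numbers are not said to mark a shared batch, and with 2 pairs the same-numbered libraries correlated at 0.31 in their deviations; a replicate block gave 4486 genes higher and 4243 lower, with 8 members past the threshold (COPT5 and CCH added) and YSL6 called lower (adjusted p = 0.0107, limma). Other pseudocounts, filters and scalings kept the counts within 1.5 times. COPT3 was not past the threshold without either Col-0 library or with no filter, COPT4 without either Col-0 library, and HMA5 without any 1 library. The sizes for COPT2 and COPT3 depend on the pseudocount (6.03 and 2.93 with 0.1). No Col-0 library held more than about 10 fragments of COPT2 or COPT3, so the Col-0 levels of those 2 genes are imprecise. The smallest difference that could have been detected in them was not computed.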
